A study of Homo sapiens with 59 samples.

Results

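H2AK119ub, a single ubiquitin on a lysine near the end of histone H2A, was examined in NCI-H661 cells in which DPPA4 had been knocked down. The samples were the H2AK119ub domain lists of the line shDPPA4, 4 of the 59 samples of the series: DOX replicates 1 and 3, and H2O replicates 1 and 3. NCI-H661 is an established human large cell lung carcinoma line. All 4 samples came from 1 sorted, bulk population of these cells with a stably integrated, doxycycline-inducible miR30-type short hairpin against DPPA4. The DOX cells received 2 µg/ml doxycycline for 7 days, and the H2O cells received water for the same time. The hairpin construct was therefore present in both groups and only its induction differed. Libraries of a non-targeting hairpin were not analysed here, so an effect of doxycycline and an effect of the knockdown cannot be told apart. A domain list gives no expression value, and the level of DPPA4 itself was not checked. Each library was called against 1 genomic input per treatment, labelled replicate 2. Replicates 1 and 3 of a treatment thus shared their input, and in this respect the 2 pairs were not independent. Mouse embryonic stem cell chromatin had been added as an external reference, and its reads were not used here.

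H2AK119ub is deposited by the RING1 E3 ligases of Polycomb repressive complex 1. At silent developmental genes it lies together with H3K27me3, the mark of Polycomb repressive complex 2, and often with H3K4me3 in a state called bivalent. It is also found at lower levels at active CpG island promoters that carry H3K4me3 without H3K27me3. DPPA4 and its partner DPPA2 bind DNA in early embryonic and germ cells, are silent in most adult tissues and are switched on again in some tumours.

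The 2 DOX libraries did not resemble each other as closely as the 2 H2O libraries did, and this bears on each result. DOX replicates 1 and 3 shared 18.6 Mb of covered sequence (Jaccard index 0.169), against 32.4 Mb (0.337) for H2O replicates 1 and 3. DOX replicate 3 stood apart: 11.9% of its covered bases lay in H3K4me3 domains of DOX cells, against 46.5 to 47.2% in DOX replicate 1 and 31.6 to 34.7% for the H2O libraries in their own H3K4me3 domains. Conversely, 42.0 and 52.2% of its bases lay in the 2 H3K27me3 lists of DOX cells, against 21.3 and 23.4% in DOX replicate 1 and 11.3 to 33.1% in the H2O libraries. The DOX replicate 3 libraries of the other knockdown lines had the same tendency, marking 21.7% of H3K4me3-only promoters in shDPPA2 and 39.6% in shDPPA2+4, against 66.2 and 67.9% in their DOX replicate 1. Its part in the results below was not tested, and each replicate pair is therefore given apart. Relative sequencing depth, recovered from the fold and count columns and set to a mean of 1, was 1.17 and 1.35 in DOX replicates 1 and 3 and 0.877 and 0.606 in H2O replicates 1 and 3. Both DOX libraries were thus deeper than both H2O libraries. With 2 libraries a group, an exact permutation test cannot go below p = 0.33, so no permutation test was made, and the only tests over libraries are the model fits across regions. Nothing but a number distinguishes the replicates in the labels, so the p-values of these fits measure how far these samples spread.

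The line's labelled origin was set against H3K4me3 at marker promoters in its 4 H3K4me3 libraries. Of 23 lung epithelial markers, 13 were marked in all 4, among them NKX2-1, KRT8, KRT18, CDH1 and EPCAM, while 9 were marked in none, among them KRT7, FOXA2 and SFTPB. Of 20 mesenchymal markers 17 were marked in all 4, and of 22 blood and endothelial markers 19 were marked in none, the 3 exceptions being CD34, CD8A and HBA1.

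Promoters with the most H2AK119ub reads among those lost, kept and gained with DOX are introduced by their sequence. The 300 bases from 250 before to 50 after the RefSeq start of each gene (build GRCh38.p14, 5′ to 3′ on the coding strand) are shown with every CpG dinucleotide in capitals. The first 3 lost their domain with DOX in both pairs, and ZFP36 and PLEKHG2 are neighbours on chromosome 19. The next pair, NKX2-1 and SFTA3, share 1 scored promoter at GENCODE 44 start 36521149 of chromosome 14, which kept its domain in all 4 libraries. Their RefSeq starts differ from it, and the SFTA3 window shown lies partly outside the scored promoter. NUDT19 acquired a domain.
ZFP36: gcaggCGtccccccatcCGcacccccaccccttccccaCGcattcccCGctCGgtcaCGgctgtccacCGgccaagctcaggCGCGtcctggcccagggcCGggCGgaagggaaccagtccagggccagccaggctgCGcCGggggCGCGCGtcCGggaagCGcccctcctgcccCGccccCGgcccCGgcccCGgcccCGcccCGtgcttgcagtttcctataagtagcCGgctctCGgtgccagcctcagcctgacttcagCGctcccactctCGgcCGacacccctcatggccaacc
PAX9: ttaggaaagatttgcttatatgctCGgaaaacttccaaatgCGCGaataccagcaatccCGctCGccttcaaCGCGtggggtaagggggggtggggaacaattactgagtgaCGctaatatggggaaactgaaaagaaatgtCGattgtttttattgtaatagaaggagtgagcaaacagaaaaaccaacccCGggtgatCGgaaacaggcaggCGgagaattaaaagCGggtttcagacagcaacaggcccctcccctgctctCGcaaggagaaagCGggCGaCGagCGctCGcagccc
PLEKHG2: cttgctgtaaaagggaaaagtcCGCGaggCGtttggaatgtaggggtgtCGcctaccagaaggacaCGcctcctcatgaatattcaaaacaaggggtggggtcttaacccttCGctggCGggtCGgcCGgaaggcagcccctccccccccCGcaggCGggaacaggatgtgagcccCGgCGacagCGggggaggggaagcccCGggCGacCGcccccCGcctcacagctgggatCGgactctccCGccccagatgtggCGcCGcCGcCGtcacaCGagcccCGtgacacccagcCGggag
NKX2-1: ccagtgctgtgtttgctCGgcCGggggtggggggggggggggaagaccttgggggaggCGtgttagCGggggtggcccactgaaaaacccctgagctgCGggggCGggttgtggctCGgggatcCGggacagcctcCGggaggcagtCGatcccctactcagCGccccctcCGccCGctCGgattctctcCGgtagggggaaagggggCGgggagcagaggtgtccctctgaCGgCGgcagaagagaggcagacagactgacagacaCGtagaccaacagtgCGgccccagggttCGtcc
SFTA3: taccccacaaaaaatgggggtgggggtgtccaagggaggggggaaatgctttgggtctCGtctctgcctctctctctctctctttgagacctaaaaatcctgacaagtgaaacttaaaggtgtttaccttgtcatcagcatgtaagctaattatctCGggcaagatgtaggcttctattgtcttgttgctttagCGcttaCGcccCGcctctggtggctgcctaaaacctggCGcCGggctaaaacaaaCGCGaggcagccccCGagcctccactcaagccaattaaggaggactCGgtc
NUDT19: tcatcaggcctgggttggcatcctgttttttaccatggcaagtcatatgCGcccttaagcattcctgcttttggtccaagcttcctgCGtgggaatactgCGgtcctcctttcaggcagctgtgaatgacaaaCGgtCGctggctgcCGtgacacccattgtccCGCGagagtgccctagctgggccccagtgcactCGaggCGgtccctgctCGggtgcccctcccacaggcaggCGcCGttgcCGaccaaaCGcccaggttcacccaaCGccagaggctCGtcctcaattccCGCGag
These windows are chr19:39406597-39406896 on the plus strand for ZFP36, chr14:36657318-36657617 on the plus strand for PAX9, chr19:39412419-39412718 on the plus strand for PLEKHG2, chr14:36520183-36520482 on the minus strand for NKX2-1, chr14:36519507-36519806 on the minus strand for SFTA3, and chr19:32691571-32691870 on the plus strand for NUDT19. They held 29 CpGs in ZFP36, 19 in PAX9, 27 in PLEKHG2, 21 in NKX2-1, 11 in SFTA3 and 19 in NUDT19. CG, which reads the same on both strands, was also counted in 300 bases placed alike around every GENCODE 44 start of hg38. At least 1 was found in 97.8% of promoters, with a median of 18. The counts above for NKX2-1 and SFTA3 are at other starts and cannot be compared directly with these. Promoters that lost H2AK119ub in both pairs had a median of 24 CpGs, those marked in all 4 libraries 28, those gained 9 and those marked in none 6. Among H3K4me3-only promoters alone, the medians were closer, at 26 for lost, 30 for marked in all 4, 19 for gained and 20 for marked in none.

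The number and width of domains differed as much between replicates as between treatments. After the study's filter (log2 fold above 1 and FDR under 0.05), DOX replicate 1 held 40041 domains over 38.2 Mb and DOX replicate 3 held 87258 over 90.3 Mb, against 53092 over 80.3 Mb in H2O replicate 1 and 47920 over 48.3 Mb in H2O replicate 3. In pair 1 the DOX library covered less than the H2O library and in pair 3 it covered more. The median width was 700 and 800 bp in the DOX libraries, against 1100 and 700 bp in the H2O libraries. Domains wider than 5000 bp numbered 318 in DOX replicate 1 and 785 in DOX replicate 3, against 1709 in H2O replicate 1 and 413 in H2O replicate 3. They made up 6.0 and 6.6% of covered bases with DOX, against 15.7 and 6.1% with H2O, so H2O replicate 1 was the library with the broadest domains. The reads in domains summed to 1589216 and 3653434 with DOX, against 2687406 and 1330926 with H2O. Divided by the relative library total, these sums were 1.36 and 2.71 Mreads (megareads) with DOX, against 3.07 and 2.20 Mreads with H2O, so the groups overlapped.

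Wide domains were found again far more often than narrow ones, with DOX as between replicates. With DOX, 32.9% of the bases of H2O replicate 1 and 51.5% of those of H2O replicate 3 were still covered in the library of the same number. The yardstick is the other H2O replicate, in which 40.3% of the bases of H2O replicate 1 and 67% of those of H2O replicate 3 were covered. For H2O domains over 5000 bp, 63.4 and 80.0% of bases were kept with DOX in pairs 1 and 3, and 72.0 and 96.9% in the other H2O replicate. For domains of 600 to 1000 bp the same shares were 10.8 and 38.6% with DOX, against 16.3 and 47.8% in the other H2O replicate. The share kept with DOX was below the replicate share in each of these comparisons.

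Many of the widest domains lay over lineage transcription factor genes, and most of these persisted with DOX. The single widest domain of H2O replicates 1 and 3 and of DOX replicate 1 lay over NKX2-1, the lung and thyroid lineage homeobox factor, and its neighbour SFTA3 on chromosome 14. As a single call it was 25200 and 24100 bp in DOX replicates 1 and 3, against 49400 and 30800 bp in H2O replicates 1 and 3. Of the 49400 bp, 36500 and 33400 bp were covered in DOX replicates 1 and 3, and 31300 bp in H2O replicate 3. Of the 30800 bp, 30400 and 28200 bp were covered in DOX replicates 1 and 3. The shorter calls with DOX were thus not matched by an equal drop in covered bases. Input density under the domains at this locus was 18.7 and 18.8 reads per kb with DOX, against 18.3 and 18.8 with H2O. The mean over all domains was 3.13 to 4.33, so input density at this locus was above the mean in both treatments. IRX4, an Iroquois homeobox factor, held the widest domain of DOX replicate 3, 36100 bp, of which 30100 bp were covered in DOX replicate 1, 33600 bp in H2O replicate 1 and 31900 bp in H2O replicate 3. SP9, a zinc finger factor of forebrain interneurons, and ONECUT3, a homeobox factor of liver and neural tissue, were among the 5 widest of DOX replicate 1 and of H2O replicate 3. FOXF1, the forkhead factor of lung mesenchyme, and UNCX, a homeobox factor of somites, were among the 5 widest of H2O replicate 1, and at least 22700 bp of each were covered in both DOX libraries. At BHLHE41 and SSPN less was kept, with 10800 and 14900 bp covered in DOX replicates 1 and 3 of a domain of 28800 bp in H2O replicate 1. The clearest exception was a domain of 28000 bp over PLEKHG2, RPS16 and SUPT5H in H2O replicate 1, of which 0 bp were covered in either DOX library and 10200 bp in H2O replicate 3.

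Promoters carried fewer H2AK119ub domains with DOX in both pairs. Of 20007 protein-coding promoters (1500 bp on each side of the start, marked with 300 bp or more under domains), 8836 and 6664 were marked in DOX replicates 1 and 3, against 11043 and 8985 in H2O replicates 1 and 3. The groups did not overlap, though DOX replicate 1 and H2O replicate 3 lay close together. In pair 1, 887 promoters were marked with DOX only and 3094 with H2O only, and in pair 3, 1085 with DOX only and 3406 with H2O only. Of the promoters marked in H2O replicate 1, 28.0% were unmarked in DOX replicate 1 and 24.6% were unmarked in H2O replicate 3. Of those marked in H2O replicate 3, 37.9% were unmarked in DOX replicate 3 and 7.38% in H2O replicate 1, while 40.9% of those marked in DOX replicate 1 were unmarked in DOX replicate 3. The loss in pair 1 was thus little above the difference between the H2O replicates. The loss in pair 3 was far above the matching 7.38% between the H2O replicates, but no larger than the 40.9% between the DOX replicates.

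H3K4me3-only promoters, the active and largest class, made up most of the promoters lost in each pair, and most bivalent promoters stayed marked. Of H3K4me3-only promoters marked with H2O, 27.1 and 48.0% were unmarked with DOX in pairs 1 and 3, against 28.0 and 37.9% over all promoters. The H3K4me3-only share was thus above that over all promoters only in pair 3. The same shares were 10.7 and 5.64% for bivalent, 64.7 and 14.5% for H3K27me3-only and 62.1 and 32.9% for promoters with neither mark. The classes were taken from the H2O libraries of the same line. Of 11289 H3K4me3-only promoters, 58.3 and 30.9% were marked in DOX replicates 1 and 3, against 70.9 and 55.7% in H2O replicates 1 and 3. This is a difference of -12.6 points in pair 1 and -24.9 points in pair 3, and the ranges of the groups overlapped. Of 1369 bivalent promoters, 87.4 and 92.3% were marked with DOX, against 97.4 and 94.6% with H2O, a difference of -10.1 and -2.34 points without overlap. The 595 H3K27me3-only promoters went opposite ways, with 15.0 and 58.3% marked with DOX against 34.8 and 30.1% with H2O. Promoters with neither mark were marked in 6.91 and 14.7% with DOX, against 13.9 and 10.0% with H2O. Mean scaled reads, the domain reads in the window divided by the relative library total, showed no overlap in the first 2 classes. They were 32.0 and 13.5 with DOX against 59.5 and 40.7 with H2O at H3K4me3-only promoters, and 66.3 and 77.7 with DOX against 111 and 107 with H2O at bivalent promoters.

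**Figure D1:**
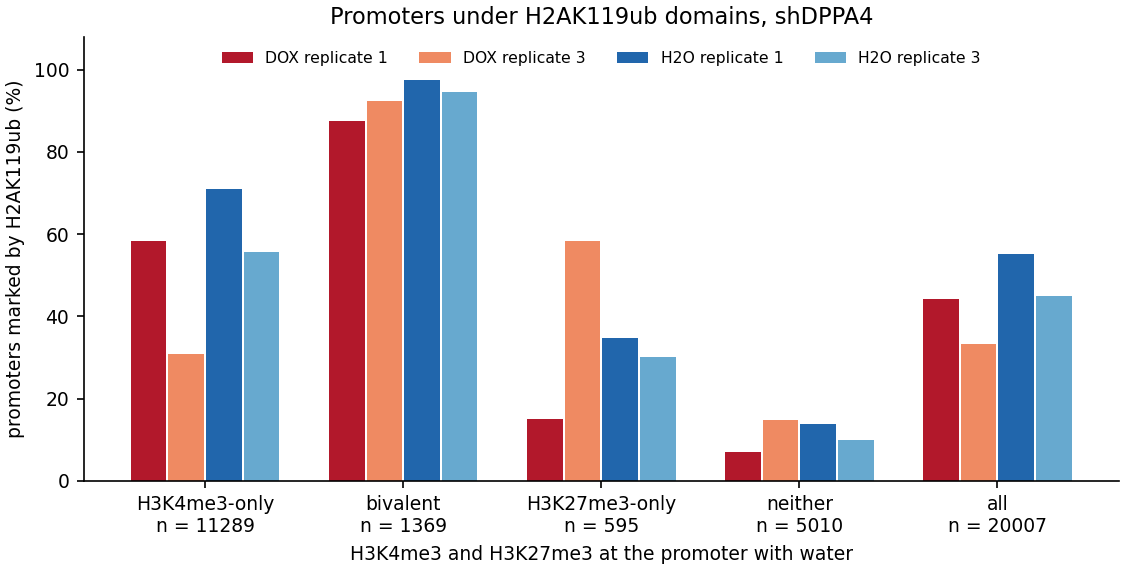
Share of promoters marked by H2AK119ub (%, y axis) in each library, by the H3K4me3 and H3K27me3 state of the promoter with water (x axis, number of promoters under each name); each bar is 1 library. At H3K4me3-only promoters DOX replicate 3 is lowest at 30.9%, and at H3K27me3-only promoters it is highest at 58.3%.

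The profile around start sites gave the shape of this difference. At H3K4me3-only promoters coverage peaked 600 to 800 bp inside the gene and dipped over the start itself. The peak was 39.5% of promoters in DOX replicate 1 and 19.5% in DOX replicate 3, against 56.4% in H2O replicate 1 and 39.0% in H2O replicate 3. The coverage curves of DOX replicate 1 and H2O replicate 3 lay on top of each other, at 23.2 and 22.2% over the start. Coverage is not scaled for depth. Divided by the relative library total, domain reads per kb were 15.4 and 20.0 at 600 bp inside the gene. Over the start they were 9.09 and 11.5, so DOX replicate 1 was lower by this measure. At bivalent promoters the peak was 69.0 and 77.9% with DOX, against 89.5 and 77.8% with H2O, so DOX replicate 3 matched H2O replicate 3 there. At 10 kb before the start, coverage of H3K4me3-only promoters was 3.87 and 4.32% with DOX, against 8.16 and 4.30% with H2O.

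**Figure D2:**
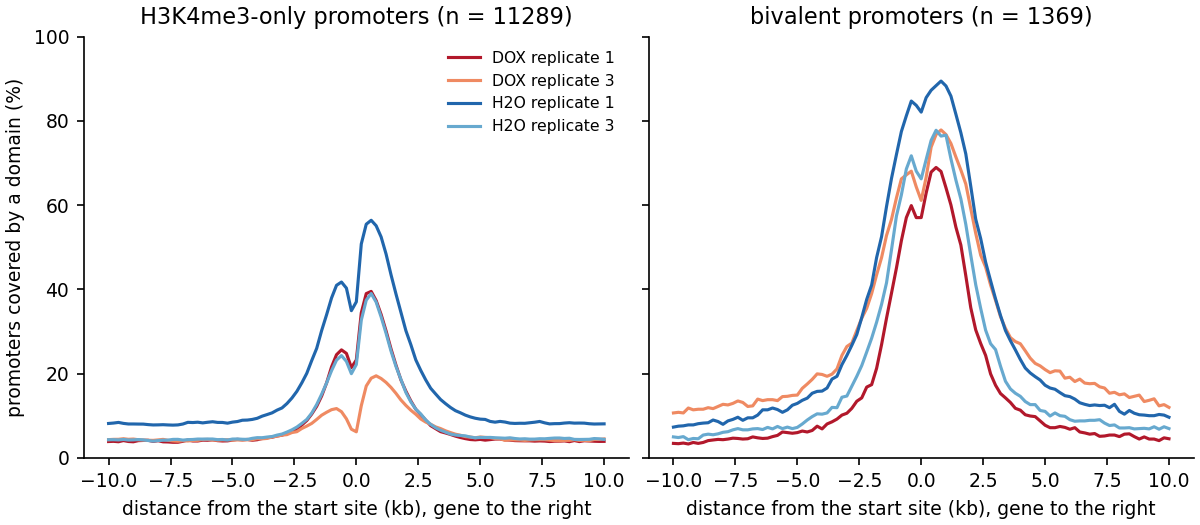
Share of promoters covered by an H2AK119ub domain (%, y axis) by distance from the start site (kb, x axis, gene to the right) for H3K4me3-only and bivalent promoters, 1 line per library. In this coverage, not scaled for depth, DOX replicate 1 and H2O replicate 3 coincide at H3K4me3-only promoters, with peaks of 39.5 and 39.0%. DOX replicate 3 peaks at 19.5%.

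The bases kept with DOX depended on the chromatin state, in an order that was only partly the same in both pairs. In bases with both H3K4me3 and H3K27me3 with H2O, 80.9 and 86.8% of H2O coverage was kept in pairs 1 and 3. The other H2O replicate covered 88.8 and 97.0% of it, so the kept share was below the replicate share in both pairs. Under H3K4me3 alone the kept share was 53.6 and 39.6%, against 55.0 and 89.8% in the other H2O replicate. Under H3K27me3 alone it was 26.9 and 69.8%, against 43.4 and 56.4% in the other H2O replicate. DOX replicate 3 covered 32.4% of the genome under H3K27me3 alone and DOX replicate 1 covered 7.34%, with H2O replicates 1 and 3 between them at 17.5 and 13.4%. Between genes DOX replicate 3 covered 41.0 Mb, against 11.3 Mb in DOX replicate 1 and 27 and 15.6 Mb in the H2O libraries.

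In all, 940 promoters lost H2AK119ub in both pairs and 65 gained it. These are 4.70% and 0.325% of all promoters, and the lost ones are 11.3% of the 8322 promoters marked in both H2O libraries. Another 4881 were marked in all 4 libraries. Of the 940 lost promoters, 811 were H3K4me3-only (86.3%), 28 bivalent, 11 H3K27me3-only and 60 had neither mark. H3K4me3-only promoters were also the largest class, 11289 of all 20007. Among promoters marked in both H2O libraries, 13.8% of H3K4me3-only and 2.18% of bivalent ones were lost. The share was 8.66% for H3K27me3-only promoters and 16.1% for those with neither mark. In 849 of them no base of the window was under a domain in either DOX library. Their median window coverage with H2O was 1476 bp in replicate 1 and 800 bp in replicate 3, against 2701 and 1986 bp for promoters marked in all 4, so the lost ones were the narrower ones. H3K4me3 did not go with it: 865 of the 940 were marked by H3K4me3 in both DOX libraries and 863 in both H2O libraries, and 0 acquired H3K27me3 in both DOX libraries after having it in neither H2O library. Of the 65 gained promoters, 27 were H3K4me3-only and 25 had neither mark, and 56 had 0 bp covered in both H2O libraries. A value of 0 here means that no domain was called, not that no read was present.

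The 12 lost promoters with the highest reads were covered nearly from end to end with H2O and had no domain with DOX. ZFP36, which encodes the mRNA decay factor tristetraprolin, had 0 and 0 scaled reads in DOX replicates 1 and 3, against 390 and 374 in H2O replicates 1 and 3. PAX9, a paired-box factor of pharyngeal and skeletal development that lies next to NKX2-1, had 0 and 0 with DOX, against 331 and 316 with H2O. PLEKHG2, a guanine nucleotide exchange factor, had 0 and 0 with DOX, against 278 and 279 with H2O. The water replicates of these genes lay close to each other, and no domain was called over the promoter in either DOX library. Both follow in part from the choice, since lost promoters were ranked by their smaller H2O value. LRFN1, a synaptic adhesion protein, had 0 and 0 with DOX, against 257 and 261 with H2O. NIM1K, a kinase related to AMPK, had 0 and 0 with DOX, against 239 and 276 with H2O. CRACD, a regulator of actin capping, was the 1 bivalent promoter of the 12 and had 0 and 0 with DOX, against 204 and 229 with H2O. The others, in order, were BMAL2, a circadian clock factor; PRX, the myelin protein periaxin; DPY19L3, a C-mannosyltransferase; METTL21A, a methyltransferase of heat shock proteins; PARD3B, a cell polarity protein; and DCUN1D4, a cofactor of cullin neddylation. Their H2O values ranged from 173 to 244 and their DOX values were all 0. The input density under the H2O domains of the 12 was 8.81 to 17.1 reads per kb, against means of 4.21 and 4.33 over all domains of the 2 H2O libraries. A ranking by reads therefore drew on loci with high input, whose part in the result was not tested.

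The gained promoters were weaker. NUDT19, a coenzyme A diphosphatase of peroxisomes, had 103 and 53.3 scaled reads with DOX, against 0 and 0 with H2O. DSTYK, a dual serine, threonine and tyrosine kinase, had 54.9 and 34.8 with DOX, against 0 and 0 with H2O. GAPDHS, the sperm form of a glycolytic dehydrogenase, had 32.5 and 36.3 with DOX, against 0 and 0 with H2O. None of the 8 named gained promoters reached the level of any of the 12 named lost promoters with H2O, the highest value being that of NUDT19 in DOX replicate 1. PSMD11, a proteasome lid subunit, had 34.2 and 26.2 with DOX, against 0 and 0 with H2O. ATP5PB, a subunit of the ATP synthase stalk, had 35.9 and 20.8 with DOX, against 0 and 0 with H2O. SUB1, a transcriptional coactivator, had 21.4 and 42.3 with DOX, against 0 and 1.18 with H2O. ENSG00000281348, which has no symbol, had 97.9 and 24.5 with DOX, against 0 and 0 with H2O, and ENSG00000288529, also without one, had 53.5 and 24.5 with DOX, against 0 and 0 with H2O.

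At the promoters marked in all 4 libraries with the highest reads, values divided by the library totals were lower in both DOX libraries than in both H2O libraries, but on the TMM scale, which centres the tested regions, the regions of NKX2-1, VSTM2B and SLC6A3 were higher with DOX in both pairs. NKX2-1 and SFTA3 start at the same base in GENCODE 44 and had 304 and 306 scaled reads with DOX, against 379 and 451 with H2O. VSTM2B, a membrane protein of the immunoglobulin family, had 235 and 214 with DOX, against 271 and 333 with H2O. On the TMM scale the log2 differences were 0.31 and 0.09 in pairs 1 and 3 for the region of NKX2-1 and 0.26 and 0.63 for that of VSTM2B. KCNK6, a potassium leak channel, had 218 and 213 with DOX, against 325 and 269 with H2O. PDGFRA, the platelet-derived growth factor receptor alpha, had 234 and 207 with DOX, against 267 and 288 with H2O. SLC6A3, the dopamine transporter, had 215 and 207 with DOX, against 312 and 310 with H2O. For the region of SLC6A3 the TMM differences were 0.25 and 0.47, and for that of KCNK6 they were -0.13 and -0.42, so the direction at these promoters depended on the scaling.

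**Figure D3:**
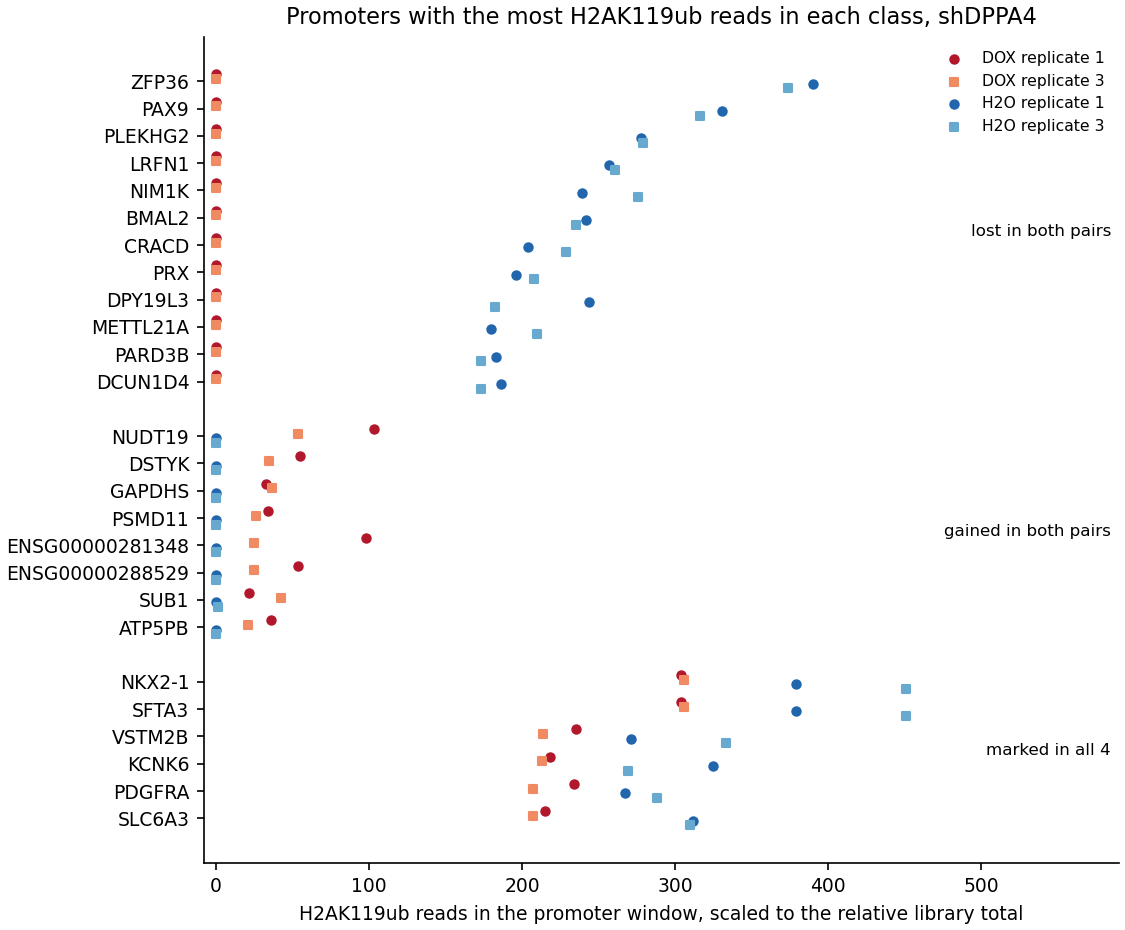
H2AK119ub reads in the promoter window divided by the relative library total (x axis) for the 12 lost, 8 gained and 6 always marked promoters with the highest reads (y axis); each point is 1 library. The lost promoters lie at 0 in both DOX libraries and between 173 and 390 in the H2O libraries, and the gained ones reach at most 103.

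The 9 genes shown as examples in the study, some of them for H2AK119ub differences after knockdown and so no independent evidence, fell into different classes, with 2 lost in both pairs. CDK6, a cyclin-dependent kinase of G1 phase, had 0 and 0 scaled reads with DOX, against 174 and 128 with H2O. ITGB8, the integrin beta 8 subunit that activates TGF-beta, had 0 and 0 with DOX, against 161 and 81.9 with H2O. Both carried H3K4me3 without H3K27me3. FOXO3, a forkhead factor of stress responses, had 116 and 5.64 with DOX, against 156 and 137 with H2O. PAX6, the eye and neural paired-box factor, had 97.6 and 0 with DOX, against 131 and 103 with H2O. DLX1, a homeobox factor of forebrain interneurons, had 129 and 10.4 with DOX, against 182 and 159 with H2O. FOXO3, PAX6 and DLX1 thus stayed marked in DOX replicate 1 and were unmarked only in DOX replicate 3. DLX2, the paralog beside DLX1, had 84.0 and 53.5 with DOX, against 138 and 146 with H2O. FOXP2, a forkhead factor of speech circuits, had 151 and 44 with DOX, against 176 and 162 with H2O. Both remained marked with the lowest value in DOX replicate 3. CYP26A1, the retinoic acid hydroxylase, had 145 and 79.3 with DOX, against 195 and 172 with H2O. TFAP2C, an AP-2 factor of trophoblast and germ cells, had 176 and 114 with DOX, against 221 and 205 with H2O. These last 4 were marked in every library, with DOX replicate 3 the lowest in each. At DPPA4 itself 0 and 0 bp of the promoter were covered with DOX, against 855 and 0 bp with H2O, and at DPPA2 no library had a domain.

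Lost promoters were scattered over the genome with a few clusters. The 940 fell into 718 runs of neighbours among the promoters marked with H2O, of which 550 were single promoters and 4 held 5 or more. A window was shared with another lost promoter in 231 cases, so these are not independent losses. By chromosome the share lost among promoters marked in both H2O libraries lay between 6.03% on chromosome 9 and 16.6% on the X chromosome among the autosomes and X, and chromosome 19 had 98 losses (14.8%). The longest run, of 6, went from ASNSD1, an asparagine synthetase-like gene, to HIBCH, a valine catabolism enzyme, over 0.683 Mb of chromosome 2.

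A run of 5 on chromosome 19, ZFP36, PLEKHG2, RPS16, SUPT5H and TIMM50, spanned 0.0736 Mb and held the 2 strongest losses of that chromosome. RPS16 encodes a protein of the small ribosomal subunit, SUPT5H a transcription elongation factor and TIMM50 a mitochondrial import subunit. In the window from 39405347 to 39481912 (hg38), domains covered 3.5 and 2.6 kb with DOX, against 66.1 and 34.2 kb with H2O. They held 145 and 122 reads with DOX, against 5136 and 1865 with H2O. H3K4me3 in the same window, from replicates 1 and 2 of each treatment, covered 42.4 and 29.0 kb with DOX, against 33.6 and 26.4 kb with H2O, and H3K27me3 was not called in any of the 4 libraries. Input density under those H3K4me3 domains was 19 and 19.3 reads per kb with DOX, against 17.8 and 18.6 with H2O, so the inputs of both treatments had about the same density there. The edges were unequal between pairs. Upstream, LRFN1 lay 86.0 kb from ZFP36 and was lost in both pairs. Between them, GMFG and SAMD4B, which share a bidirectional promoter 64.4 to 64.5 kb away, kept 113 and 117 scaled reads in DOX replicate 1 and had 0 in DOX replicate 3, against 153 and 158 in H2O replicate 1 and 247 and 249 in H2O replicate 3. Downstream, DLL3, a Notch ligand 92.0 kb away, had 226 and 0 with DOX, against 309 and 304 with H2O, and SELENOV, a selenoprotein gene, had 208 and 0 with DOX, against 268 and 275 with H2O. LGALS13 and LGALS16, galectin genes with H3K27me3 alone, had 0 in DOX replicate 1 but 169 and 131 in DOX replicate 3, against 104 and 54.2 in H2O replicate 1 and 117 and 41.3 in H2O replicate 3. This stretch was chosen after its values were seen.

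**Figure D4:**
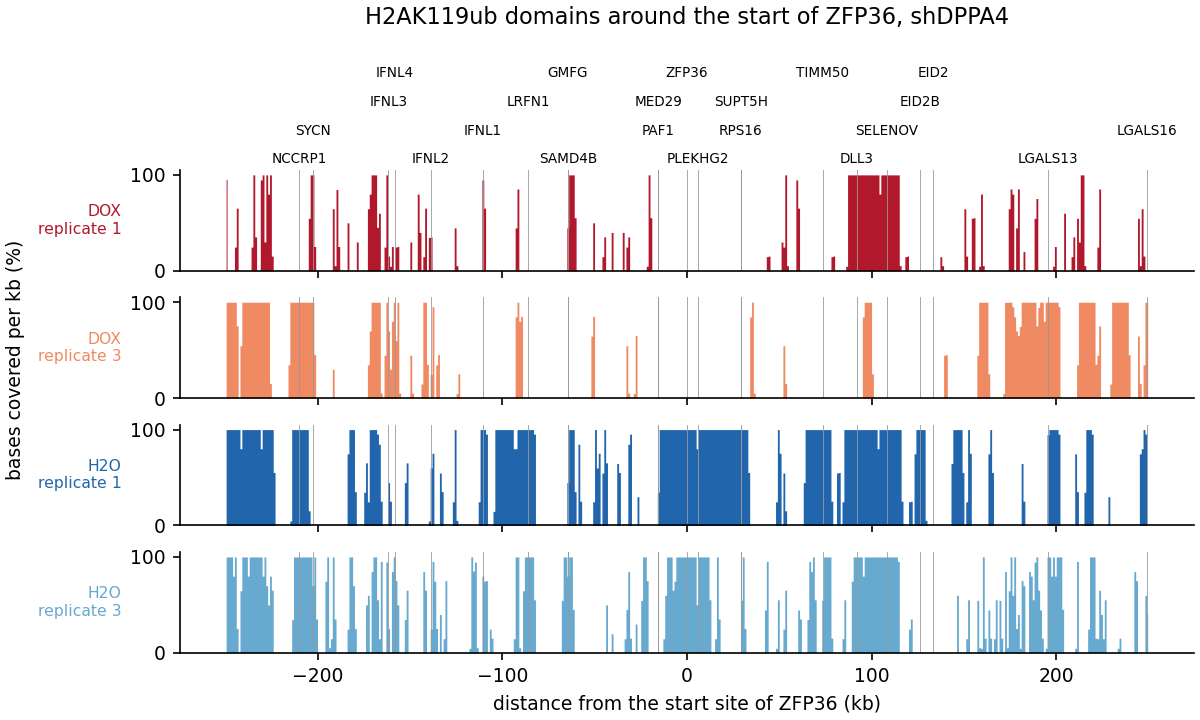
Bases under H2AK119ub domains (% per kb, y axis) within 250 kb of the ZFP36 start (distance in kb, x axis) in the 4 libraries, with start sites of protein-coding genes as grey lines. The block from MED29 past SUPT5H is covered in H2O replicate 1, in part in H2O replicate 3 and in neither DOX library. The domain at DLL3 remains in DOX replicate 1.

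Gene bodies showed opposite differences in the 2 pairs. Among 14299 bodies of at least 10 kb, measured from 1500 bp after the start to the gene end, the mean share covered was 2.45 and 4.48% with DOX, against 5.51 and 3.12% with H2O. The difference was -3.07 points in pair 1 and 1.36 points in pair 3. Bodies covered over 25% or more numbered 270 and 734 with DOX, against 933 and 437 with H2O. In pair 1, 668 bodies fell under this mark with DOX and 5 passed it, and in pair 3, 101 fell under it and 398 passed it. In both pairs 56 were lost (0.392% of those measured) and 0 gained (0%). Of the 56, 24 lay on chromosome 19 (42.9%), which held 6.51% of the bodies measured. Of bodies marked in both H2O libraries, 32.0% of 75 were lost on chromosome 19, 16.4% of 55 on chromosome 17 and 19% of 42 on chromosome 11, against 13% of 431 on all chromosomes. Their promoters were lost in 7, marked in all 4 libraries in 21 and marked in none in 7. In bodies of bivalent promoters mean coverage was 2.80 and 10.3% with DOX, against 6.58 and 4.44% with H2O, DOX replicate 3 being the highest. In bodies of H3K4me3-only promoters it was 2.52 and 3.12% with DOX, against 5.51 and 2.89% with H2O.

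Of the 6 bodies with the largest loss, 4 lay on chromosome 19. PRX was covered over 0 and 0% of its body with DOX, against 99.0 and 72.9% with H2O. PAX9 was covered over 0 and 1.48% with DOX, against 47.5 and 48.9% with H2O. PLEKHG2 was covered over 0 and 0% with DOX, against 100 and 47.3% with H2O. In these 3 the loss of the promoter domain ran on through the gene. MNT, a repressor that competes with MYC for its partner MAX, was covered over 23.8 and 5.15% with DOX, against 77.9 and 48.3% with H2O. SARS2, the mitochondrial seryl-tRNA synthetase, was covered over 2.86 and 0% with DOX, against 61.7 and 38.1% with H2O, although its promoter was marked in no library. TIMM50 was covered over 2.53 and 0% with DOX, against 54.5 and 31.9% with H2O.

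Gene groups are given by how many of their promoters marked in both H2O libraries were lost in both pairs, beside 11.3% over all promoters. Among developmental regulators few were lost. Of the homeobox and other developmental transcription factors 4 of 135 were lost (PAX9, NKX2-8, TBX4 and ASCL5), and 106 were marked in all 4 libraries. NKX2-8, the paralog between NKX2-1 and PAX9, had 0 and 0 scaled reads with DOX, against 101 and 79.7 with H2O. Of the HOX genes, which pattern the body axis, 2 of 32 were lost, HOXB2 with 0 and 0 with DOX against 121 and 72.3 with H2O, and HOXC12 with 0 and 0 with DOX against 61.5 and 53.4 with H2O. Of Wnt signalling genes 0 of 52 and of axon guidance genes 0 of 40 were lost. Of BMP and TGF-beta genes 2 of 36 were lost, ID1, an inhibitor of basic helix-loop-helix factors, and BMPR2, the type 2 BMP receptor. Of the Notch pathway 1 of 25, NUMB, was lost, and of Polycomb subunits 2 of 27, RYBP, a subunit of the non-canonical complex that deposits H2AK119ub, and ASXL1, part of the deubiquitinase that removes it. RYBP had 0 and 0 with DOX, against 122 and 91.5 with H2O.

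Several groups whose promoters were mostly H3K4me3-only had shares above that over all promoters. Of oxidative phosphorylation genes 7 of 13 were lost, among them NDUFA1, NDUFS8 and NDUFV1 of complex I and SDHD of complex II, and 1, ATP5PB, was gained. Of DNA replication genes 5 of 14 were lost, among them RPA2, with 0 and 0 scaled reads with DOX against 111 and 107 with H2O, POLA2, with 0 and 0 with DOX against 83.3 and 59.4 with H2O, and MCM7, a subunit of the replicative helicase. Of DNA repair genes 5 of 15 were lost, among them RNF168, a ubiquitin ligase of the double-strand break response, with 0 and 0 with DOX against 54.5 and 84.2 with H2O, and ERCC3, a helicase of TFIIH, was gained with 31.8 and 17.8 with DOX against 0 and 0 with H2O. Of zinc finger genes on chromosome 19 the count was 16 of 53, of the proteasome and ubiquitin ligases 4 of 15, of splicing factors 3 of 14, of histone genes 2 of 10 and of G1 cell cycle genes 4 of 23. Cytosolic ribosomal protein genes and their paralogs, with 2 of 20 lost, were not above it. H4C8 and H2BC9 were the lost histone genes, and H2AC8 and H2BC8, which lie together on chromosome 6, were gained. Histone and zinc finger genes have close copies, and how reads shared between copies were placed makes these values uncertain. G1 losses beside CDK6 were E2F5, RBL2 and the tumour suppressor CDKN2A, with 0 and 0 with DOX against 82.0 and 16.5 with H2O. These shares rest on few promoters. For comparison, 13.8% of all H3K4me3-only promoters marked in both H2O libraries were lost and 2.18% of bivalent ones.

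The other groups were near or below the share over all promoters. Lost were 2 of 16 circadian clock genes (BMAL2 and TEF), 1 of 30 immediate early genes (ZFP36), 3 of 26 tight junction and adhesion genes (ITGB8, CLDN15 and TJP3) and 1 of 14 germline and early embryo genes (TDRD12). Of lung epithelial, mesenchymal and blood and endothelial markers 0 of 14, 0 of 13 and 0 of 5 were lost. Of clustered protocadherins 0 of 4 were lost. Keratin-associated protein genes and olfactory receptor genes, tissue-restricted families in gene clusters, were rarely marked except in DOX replicate 3. They were marked in 1 and 23 of 94 with DOX, against 5 and 6 with H2O, for the keratin-associated family, and in 1 and 20 of 400 with DOX, against 10 and 5 with H2O, for the olfactory receptors.

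Read counts were tested where all 4 libraries held a domain. Of 120098 merged regions 10164 qualified, and edgeR's quasi-likelihood test with the replicate number as a block called 0 lower (0%) and 0 higher (0%) at an adjusted p under 0.05 and a log2 fold change of at least 0.5. The smallest adjusted p was 0.525. At an unadjusted p under 0.05, 176 regions were lower (1.73%) and 191 higher (1.88%). The replicate pairs disagreed by a median of 0.720 on the log2 scale. By DESeq2 6 regions were lower and 4 higher. Without DOX replicate 1 the calls were 652 lower and 662 higher, and without DOX replicate 3 they were 156 lower and 15 higher, with the lone DOX library assumed to vary like the others. Since the test needs a domain in each library, a lost or gained promoter entered only where its merged region held a called part outside the promoter window in the other libraries, as at LRFN1 and DCUN1D4.

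TMM scaling centres the tested regions, and a shift common to them was removed by it. Scaled by the relative library totals instead, the median region was at -0.96 (log2, DOX minus H2O) in pair 1 and -0.43 in pair 3, and 9208 of 10164 regions were lower with DOX. On the TMM scale the 2349 regions holding the start of an H3K4me3-only promoter had a median fitted log2 fold change of -0.23, against -0.02 over all regions, with a pair 1 median of 0.08 and a pair 3 median of -0.525. Those of the 1035 regions at bivalent starts were 0.11 fitted, 0.05 in pair 1 and 0.25 in pair 3, and turned to -0.92 and -0.19 in the pairs when scaled by library totals. By totals the H3K4me3-only starts were at -0.89 in pair 1 and -0.97 in pair 3, so the classes differed in pair 3 on either scale and hardly in pair 1. The lower median at H3K4me3-only starts came from pair 3, in which DOX replicate 3 entered. Regions between genes had medians of 0.14 fitted, -0.06 in pair 1 and 0.38 in pair 3.

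**Figure D5:**
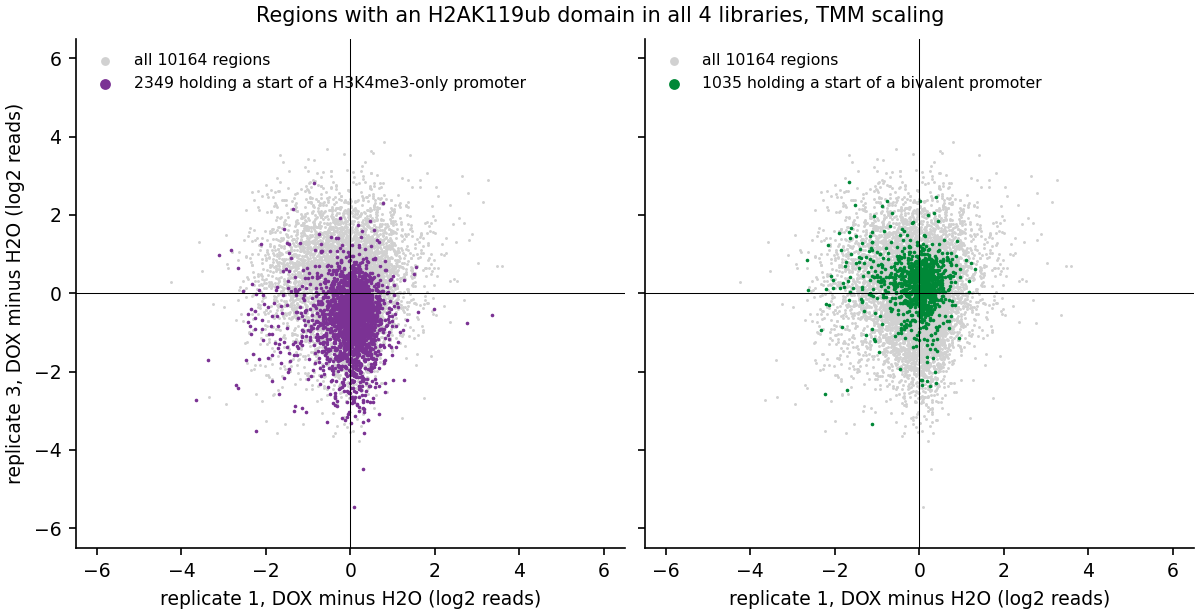
Log2 difference in reads, DOX minus H2O, of replicate 1 (x axis) against replicate 3 (y axis) for the 10164 regions with a domain in all 4 libraries; grey points are all regions and coloured points hold the start of an H3K4me3-only (left) or bivalent (right) promoter. The H3K4me3-only regions centre near 0.08 in pair 1 and near -0.525 in pair 3, and the bivalent ones near 0.05 and 0.25; scaled by library totals, all of these pair medians are below 0 (-0.89 and -0.97, and -0.92 and -0.19).

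Of the regions with the smallest p, none passed the adjusted threshold, and their values are given as such. The region at CYBRD1, a ferric reductase of the gut (chromosome 2, 171519001 to 171525200), held 15 and 36 reads with DOX, against 288 and 146 with H2O, or -3.19 ± 0.55 on the log2 scale (fitted change and its SE, edgeR adjusted p = 0.525). The region at LRFN1 (chromosome 19, 39313701 to 39324800) held 51 and 196 with DOX, against 788 and 390 with H2O, at -2.52 ± 0.44 (adjusted p = 0.525 by edgeR). The region at DCUN1D4 held 39 and 23 with DOX, against 272 and 163 with H2O, at -2.87 ± 0.55. In each of these the called length was also shorter, in CYBRD1 300 and 1000 bp with DOX, against 5400 and 4600 bp with H2O. With the called length as an offset, which compares read density, the fitted values were -0.41 for CYBRD1, -0.64 for LRFN1 and -0.77 for DCUN1D4. With all deposited domains CYBRD1 was at -0.60. Domains were kept only above a fold threshold, which limits how low their read density can be. The offset therefore cannot separate a shorter domain from a weaker signal. Lower values were also found in the bodies of IQUB, a ciliary gene, and SSPN, a muscle membrane protein of the dystrophin complex, and at SOBP, a cochlear nuclear protein. In the other direction a region in EGLN3, an oxygen-sensing prolyl hydroxylase (chromosome 14, 34104501 to 34116100), held 208 and 552 reads with DOX, against 34 and 66 with H2O, at 2.74 ± 0.41 (adjusted p = 0.525 by edgeR). A region in EGFLAM, an extracellular matrix protein, held 107 and 248 with DOX, against 16 and 20 with H2O, at 3.09 ± 0.60. A region in ACTN4, a nonmuscle actinin, held 224 and 159 with DOX, against 47 and 16 with H2O, at 2.70 ± 0.53. With the length offset these were 0.17 for EGLN3, 0.16 for EGFLAM and 0.34 for ACTN4. Of the other 5 on this side, 4 lay between genes and 1 in SSPN, where the region of higher and that of lower counts were separate. Of the always marked promoters, the region of NKX2-1 held 4599 and 4940 reads with DOX, against 5462 and 2823 with H2O, at 0.20 ± 0.30 (adjusted p = 0.998 by edgeR).

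The loss of promoter domains was set against the other knockdown lines, which share no library with shDPPA4. In shDPPA4 940 of 8322 promoters marked in both H2O libraries were lost (11.3%), in shDPPA2 519 of 8071 (6.43%) and in shDPPA2+4 446 of 8298 (5.37%). The difference in H3K4me3-only promoters marked was -12.6 and -24.9 points in pairs 1 and 3 of shDPPA4, 0.452 and -37.6 points in shDPPA2 and -2.84 and -14.6 points in shDPPA2+4. Pair 3 was lower with DOX in all 3 lines, and pair 1 in shDPPA4 and shDPPA2+4. With 2 pairs a line the difference between lines was not tested. Of the 940, 81 were also lost in shDPPA2 (8.62% of the 940 and 15.6% of that line's losses) and 72 in shDPPA2+4 (7.66 and 16.1%). Of the 940, 495 were marked in both H2O libraries of shDPPA2 and could be lost there, and 16.4% of these were, against 6.43% of all promoters so marked. In shDPPA2+4 the same could be said of 482, of which 14.9% were lost, against 5.37%. The 940 were narrower with H2O than promoters marked in all 4 libraries and mostly H3K4me3-only. The share over all promoters is not matched for this, and a matched share was not computed. BMAL2 and DPY19L3 were lost in both pairs of shDPPA2 as well. ZFP36, PAX9, PLEKHG2, LRFN1 and NIM1K were marked in all 4 libraries of shDPPA2+4, and in shDPPA2 in all but DOX replicate 3, CDK6 was marked in all 8 libraries of both lines, and PRX was marked in no library of either line. In an edgeR quasi-likelihood fit of 12 libraries over 6161 regions the change in shDPPA4 minus that in shDPPA2 was called in 0 regions, and so was that minus shDPPA2+4. At an unadjusted p under 0.05 it was lower in 157 (2.55%) and higher in 28 (0.454%) against shDPPA2, and lower in 55 (0.893%) and higher in 55 (0.893%) against shDPPA2+4.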

How the data were processed

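The members compared and the gene lists were chosen with earlier results of these data known. Per the submitters' processing notes and the study's methods, Trim Galore 0.6.6 removed adapters, BWA 0.7.13 placed the reads on hg38, SAMtools 1.9, Picard 2.6.0 and deepTools 3.5.0 are also named, and EPIC2 called domains per library on a 100 bp grid with 1 gap allowed, against the input of the same line and treatment. The deposited lists give whole read counts of ChIP and input per domain, the log2 fold of ChIP over input, a p-value with its FDR, and a score that repeats the log2 fold and was not used. Since only called domains are listed, total depth is not known, and relative library totals were recovered from the deposited counts and log2 fold.

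Domains with a log2 fold above 1 and FDR under 0.05 were kept, as in the study. The blacklist and the mouse reference reads were not applied. Genes are GENCODE 44 protein-coding genes. Reads were shared out by overlap. A promoter or body was lost when marked in both H2O libraries and in neither DOX library, and gained in the reverse case. Promoter class came from H3K4me3 and H3K27me3 in both H2O libraries of shDPPA4, and promoters whose replicates disagreed were set aside as mixed.

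Domains of all libraries were merged, and regions with a domain in every library and a mean of at least 10 reads were tested with edgeR 4.0.16 (R 4.3.3, quasi-likelihood test, TMM, replicate number as a block, Benjamini-Hochberg adjustment), with DESeq2 1.42.0 as an alternative. This left 1 residual degree of freedom before the spread was shared across regions. The script was tested on simulated counts. The study's design carries the replicate as a batch, and deviations of same-numbered libraries correlated at 0.288 over 10164 regions. Tables were made with Python 3.11.15. Named were the 12 lost, 8 gained and 6 always marked promoters with the highest smaller value, 6 bodies, the 8 regions of smallest p in each direction, the 5 widest domains per library, up to 4 lost and 4 gained promoters per list, and the genes the study shows.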

Additional observations from a re-analysis of the deposited data

How the results depend on the processing

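The direction of the promoter result held in each pair and setting, but its size did not. Promoters lost in both pairs numbered 940, against 481 with all deposited domains and 1407 with the stricter filter (log2 fold over 1.5 and FDR under 0.001). They numbered 913 with 1 bp required, 701 with 1500 bp required and 1077 in a window of 500 bp on each side. A single pair gave 3094 (pair 1, without replicate 3) to 3406 (pair 3, without replicate 1). Gained promoters numbered 65, against 120 with the stricter filter, 11 with 1500 bp required and 38 in the window of 500 bp on each side. Single pairs gave 887 to 1085 gained promoters. Bodies lost numbered 56, against 29 with all domains, 93 with the stricter filter, 107 and 15 at 10 and 50% coverage, and 101 (pair 3) to 668 (pair 1) in single pairs. Bodies gained numbered 0, against 2 with all domains, 3 at 10% coverage, and 5 (pair 1) to 398 (pair 3). The mean difference in H3K4me3-only promoters marked lay between -24.9 and -12.6 points in the pairs, and the H2O bases kept between 32.9 and 51.5%.

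Without the replicate block edgeR called 0 regions lower and 0 higher, as with it, with 120 lower and 110 higher at an unadjusted p under 0.05. Lower regions numbered 6 by DESeq2, 8 by the likelihood ratio test and 40 with the called length as an offset. Higher ones numbered 4, 4 and 25 in these settings and 6 with all domains. Leaving out 1 library gave 0 to 652 lower regions and 0 to 662 higher. The highest counts came without DOX replicate 1 (652 and 662). Without DOX replicate 3 they were 156 and 15, and without H2O replicate 3 they were 0 and 3. The intergenic region at 89772101 of chromosome 2 turned to 0.20 with all domains, and the lower region of SSPN to 0.06 with the length offset. With that offset the other 15 named regions kept their direction at smaller sizes, from -0.77 to 0.60. For these differences the cause was not tested. Depth limits a further statement: the lists show called domains only, so a promoter at 0 may hold reads, and the less deep H2O libraries could miss weak domains that the DOX libraries show.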

Other observations

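Other neighbouring promoters were lost together. On chromosome 7, AP4M1, a subunit of a trans-Golgi adaptor, MCM7, CNPY4 and TAF6, a TFIID subunit, formed a run of 4 over 0.0183 Mb, and on chromosome 3 USP4, a deubiquitinase, and GPX1, a glutathione peroxidase, belonged to a run of 4 over 0.0715 Mb. Promoters this close share windows and domains and are not separate observations. No 1 Mb window was emptied: of 663 windows with at least 20 kb covered in both H2O libraries, 0 had a higher DOX value under 10% of the lower H2O value.

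Gene bodies behind lost promoters were covered over 1.99 and 2.03% on average with DOX, against 5.05 and 2.53% with H2O (731 bodies). Behind promoters marked in all 4 libraries they were covered over 5.22 and 10.4% with DOX, against 11.7 and 6.98% with H2O (3495 bodies). In the interferon lambda genes of chromosome 19, antiviral cytokines upstream of ZFP36, IFNL3 had 45.1 and 88.8 scaled promoter reads with DOX, against 20.5 and 67.7 with H2O, and IFNL2 had 26.5 and 56.3 with DOX, against 60.5 and 57.8 with H2O. IFNL1 had 60.8 and 0 with DOX, against 135 and 75.2 with H2O, and IFNL4 had 18.8 and 103 with DOX, against 0 and 106 with H2O, so the 4 genes showed no common direction.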
